A study of Homo sapiens with 3 samples.

Results

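Among 19970 promoters of protein-coding genes on chromosomes 1 to 22 and X, 8969 were rich in CpG, the dinucleotide of a C followed by a G, and 1557 of these had neither a CHD8 nor a TRRAP peak. These 1557 promoters, 17.4% of the CpG-rich ones (16.6 to 18.2%), are described here. A promoter was called CpG-rich when the ratio of observed to expected CpG was at least 0.75 within 500 bp of the start of the gene's canonical transcript (GENCODE 44). It lacked both proteins when no peak of either list came within 1 kb of that start, upstream or downstream. Of the other CpG-rich promoters, 4934 (55%) held peaks of both lists, 2361 (26.3%) held a CHD8 peak only and 117 (1.3%) held a TRRAP peak only. The members were thus chosen by the CpG ratio and by the peaks inside the window, so these shares are a description and nothing is read from them. Ranges in brackets after a share are Wilson 95% intervals, which cover counting error only.

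The peaks came from chromatin immunoprecipitation and sequencing of wild-type human neural stem cells. They had been differentiated from H9, a widely used embryonic stem cell line. Cells had been fixed with 2 mM disuccinimidyl glutarate and with 1% formaldehyde, sonicated for 14 cycles and precipitated with an antibody to CHD8 or an antibody to TRRAP. There was 1 library per antibody and no replicate, so no difference below has a replicate check and none was tested. A library made with IgG was not used here. The CHD8 list held 23393 peaks with folds of at least 4.89 over the caller's background, and the TRRAP list 14735 peaks with folds of at least 4.82. These folds are the authors' own values for each peak. A promoter without a peak is one where no signal passed the authors' threshold at a depth that is unknown, and weak binding cannot be told apart from none.

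CpG dinucleotides are depleted from most of the human genome but are kept in CpG islands, which surround the starts of housekeeping genes and of many developmental regulators. CHD8 is a remodeler of the chromodomain helicase family that slides nucleosomes at promoters, and TRRAP is the large scaffold through which histone acetyltransferase complexes meet activators such as MYC and E2F. CpG islands of genes that a cell does not use are widely known as sites of Polycomb repression in stem cells. Neither Polycomb marks nor expression were measured in these files.

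The sequences upstream of members and of occupied promoters are set in pairs with nearly the same CpG ratio within 500 bp of the start. They show promoters of like ratio without and with peaks. The pairs were not matched in number of CpGs or in G and C content, and the bases shown can differ in both. Each is the 200 bases before the start on GRCh38, written 5′ to 3′ along the gene, with every CpG in capitals. The members are those with the highest ratio in 3 gene groups (homeobox, potassium channel and germline genes) and, from those closest to a peak, SKI, passing over promoters with an annotated exon in these bases. For the pair of BARHL2, a homeobox gene of retinal and spinal neurons, the ratio was 1.02 at both promoters.
BARHL2 (chr1:90717303-90717502, minus strand): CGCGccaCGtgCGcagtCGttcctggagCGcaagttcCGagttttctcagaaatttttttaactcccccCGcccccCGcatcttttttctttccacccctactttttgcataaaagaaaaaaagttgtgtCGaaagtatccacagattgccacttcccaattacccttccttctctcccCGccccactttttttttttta
CNTFR (chr9:34589725-34589924, minus strand): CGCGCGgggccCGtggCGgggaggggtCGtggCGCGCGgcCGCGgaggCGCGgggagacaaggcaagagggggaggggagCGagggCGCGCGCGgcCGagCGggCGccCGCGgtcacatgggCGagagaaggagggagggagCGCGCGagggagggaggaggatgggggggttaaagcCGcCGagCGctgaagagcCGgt
The BARHL2 stretch had 11 CpGs and 46.5% G and C, and its nearest peaks lay 133535 bp (CHD8) and 133411 bp (TRRAP) from the start. CNTFR, which encodes a receptor subunit for ciliary neurotrophic factor, had 31 CpGs and 78% G and C, with peaks of fold 8.87 (CHD8) and 16.3 (TRRAP) at its start.

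KCNA7, a voltage-gated potassium channel, was paired with FAM168B, and the ratio was 1.1 at both.
KCNA7 (chr19:49072700-49072899, minus strand): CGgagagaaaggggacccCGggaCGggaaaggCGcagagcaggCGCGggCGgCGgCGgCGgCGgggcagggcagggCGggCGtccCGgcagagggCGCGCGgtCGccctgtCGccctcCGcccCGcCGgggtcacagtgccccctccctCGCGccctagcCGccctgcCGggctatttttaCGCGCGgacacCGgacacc
FAM168B (chr2:131093461-131093660, minus strand): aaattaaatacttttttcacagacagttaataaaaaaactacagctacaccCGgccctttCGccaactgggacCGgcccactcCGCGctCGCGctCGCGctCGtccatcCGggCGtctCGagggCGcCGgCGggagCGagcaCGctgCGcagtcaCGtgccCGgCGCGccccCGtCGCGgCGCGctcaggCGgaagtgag
KCNA7 and FAM168B had nearly equal numbers of CpGs (30 and 29). KCNA7 lay 7449 bp from a CHD8 peak and 12579 bp from a TRRAP peak, while FAM168B had peaks of fold 15.5 and 9.12 over its start.

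MOV10L1, a helicase of the germline piRNA pathway, was paired with SECISBP2, which is needed to read UGA codons as selenocysteine. The ratio was 0.912 at both.
MOV10L1 (chr22:50089806-50090005, plus strand): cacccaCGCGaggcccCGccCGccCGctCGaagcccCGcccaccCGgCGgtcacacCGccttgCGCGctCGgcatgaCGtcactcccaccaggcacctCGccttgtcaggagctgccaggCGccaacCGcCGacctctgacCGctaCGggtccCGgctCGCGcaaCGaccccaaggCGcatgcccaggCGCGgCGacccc
SECISBP2 (chr9:89318300-89318499, plus strand): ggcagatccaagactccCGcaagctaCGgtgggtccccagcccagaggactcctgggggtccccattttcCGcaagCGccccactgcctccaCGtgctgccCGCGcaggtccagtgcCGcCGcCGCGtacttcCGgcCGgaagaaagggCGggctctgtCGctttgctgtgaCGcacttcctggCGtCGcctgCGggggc
MOV10L1 had more CpGs (28) than SECISBP2 (19), and its nearest peaks were 95657 bp (CHD8) and 110946 bp (TRRAP) away. SECISBP2 had peaks of fold 19.5 and 16.8 at its start. Of the binding words defined below, the SECISBP2 stretch holds an ETS word and an E-box, the MOV10L1 stretch a cAMP response element, the FAM168B stretch an E-box, and the BARHL2 stretch an E-box and words of NFY and SP.

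SKI, a repressor of SMAD signalling, had the highest CpG ratio of all 1557 members (1.12). It was paired with ENSG00000267127, a coding gene with no symbol, at a ratio of 1.11.
SKI (chr1:2228119-2228318, plus strand): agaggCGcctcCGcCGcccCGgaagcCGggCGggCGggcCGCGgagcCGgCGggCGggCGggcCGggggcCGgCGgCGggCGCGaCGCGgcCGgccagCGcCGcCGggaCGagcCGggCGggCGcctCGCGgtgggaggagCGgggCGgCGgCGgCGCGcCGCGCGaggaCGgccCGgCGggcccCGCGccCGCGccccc
ENSG00000267127 (chr18:80034146-80034345, plus strand): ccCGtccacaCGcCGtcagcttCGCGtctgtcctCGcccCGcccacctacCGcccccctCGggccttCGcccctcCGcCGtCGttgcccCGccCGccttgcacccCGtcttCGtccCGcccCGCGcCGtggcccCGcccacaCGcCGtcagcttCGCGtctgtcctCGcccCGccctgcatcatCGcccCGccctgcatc
The SKI stretch consisted of 92% G and C and held 47 CpGs. A CHD8 peak began 1029 bp from the SKI start, just past the window, and the nearest TRRAP peak was 15374 bp away. ENSG00000267127 had 30 CpGs and weak peaks, of fold 7.54 (CHD8) and 6.73 (TRRAP).

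The share of promoters without either peak fell as the CpG ratio rose, but it did not reach 0. Over all coding promoters 42.9% had neither peak. The share was 99.2% (380 of 383) below a ratio of 0.1, 53.6% from 0.5 to 0.6, 32.5% from 0.6 to 0.7 and 23% from 0.7 to 0.75. Within the CpG-rich range it went on falling, from 21.8% (20.1 to 23.5%, 487 of 2235) at ratios of 0.75 to 0.8 to 17.8% (16.7 to 19%) at 0.8 to 0.9, 12.6% (11.2 to 14.1%) at 0.9 to 1 and 10.9% (7.98 to 14.6%, 37 of 341) at 1 to 1.1. The 23 promoters with a ratio of 1.1 or more included 4 members (17.4%, 6.98 to 37.1%). Even in the band from 0.9 to 1, then, 258 of 2048 promoters had no peak of either list.

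**Figure D1:**
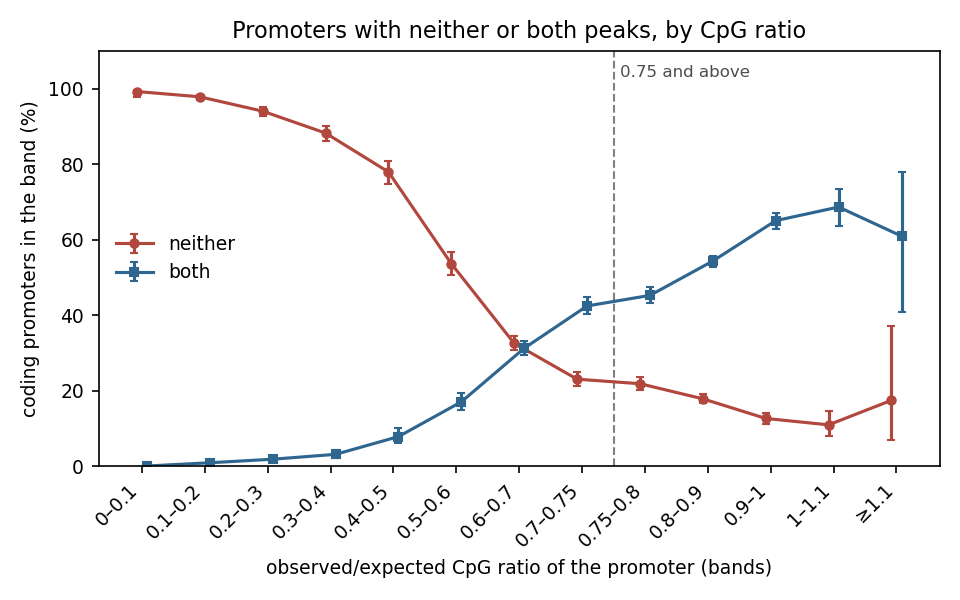
Share of coding promoters (%) with neither peak (red) and with both peaks (blue) in bands of the observed over expected CpG ratio, with Wilson 95% intervals; the dashed line marks the limit of 0.75. The share with neither falls from 99.2% to 10.9% at ratios of 1 to 1.1, where the share with both is 68.6%, and is 17.4% in the last band, which has 23 promoters.

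In base composition, members were close to promoters with both peaks. Both groups were admitted at a CpG ratio of at least 0.75, so likeness in the ratio comes in part from the rule. The length of the CpG-dense stretch depends on the same ratio. The median CpG ratio of members was 0.84 (25th to 75th percentile 0.79 to 0.88), against 0.86 (0.81 to 0.92) for promoters with both. Their G and C content was slightly higher, with a median of 68.9% (63.7 to 73%) against 67.2% (62.2 to 71.6%). The CpG-dense stretch around the start, measured through windows of 200 bp with at least 50% G and C and a ratio of at least 0.6, had a median length of 1484 bp in both groups. Long stretches of over 2500 bp were found at 10.7% of members (9.22 to 12.3%) and at 7.19% of promoters with both (6.51 to 7.95%). The longest among the members surrounded TBX2 (5807 bp), a T-box repressor of heart and limb development, and NKX1-1 (5773 bp), a homeobox gene. WNT11, a WNT ligand, followed with 5522 bp, and the homeobox genes MKX and HMX3 with 5466 and 5405 bp.

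The share lacking both did not follow G and C content the way it followed the CpG ratio. It was 15.1% (12.3 to 18.3%) of CpG-rich promoters below 55% G and C and lowest, at 10.8% (9.13 to 12.7%), from 55 to 60%. It was then 14% at 60 to 65%, 17.5% at 65 to 70%, 21.9% at 70 to 75%, 23.3% (20.7 to 26.2%) at 75 to 80% and 22.7% (16.1 to 31%) at 80% and above. The 235 members above 75% G and C were 15.1% of all members. Without promoters above 75%, an alternative chosen after seeing the data, 16.6% of CpG-rich promoters had neither peak, against 17.4% with them.

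Exact matches to some binding words of transcription factors were less frequent at members than at promoters with both peaks. Each word was searched on both strands from 200 bases upstream to 100 bases downstream of the start. The ETS word (CCGGAAGT), bound by ETS family activators such as GABPA, was at 18 of 1557 members (1.16%, 0.733 to 1.82%), at 382 of 4934 promoters with both peaks (7.74%, 7.03 to 8.52%) and at 5.93% of all coding promoters. The YY1 word (AAGATGGC), read by the zinc finger factor YY1, was at 8 members (0.514%, 0.261 to 1.01%), at 6.53% of promoters with both (5.87 to 7.25%) and at 4.3% of all coding promoters. The NRF1 word, spelled out at SHISA2 below and named for an activator of genes for mitochondria and growth, was at 13 members (0.835%, 0.489 to 1.42%), at 2.7% of promoters with both (2.28 to 3.19%) and at 1.63% of all coding promoters. Any of the 3 words occurred at 2.44% of members (1.78 to 3.33%), 15.8% of promoters with both, 21.7% of those with CHD8 only, 4.27% of the 117 with TRRAP only and 11.1% of all coding promoters. At coding promoters below the CpG limit and without peaks it was 2.11% (1.8 to 2.48%), close to the members. None of the words searched contains another.

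Sites of these words are shown next, with the word in capitals between 9 flanking bases on each side, to show that the same letters of the ETS and NRF1 words occurred with and without peaks. The YY1 word is shown at a promoter with both peaks only. CHCHD2 encodes a mitochondrial protein, ZNF264 a zinc finger protein, SHISA2 an inhibitor of receptor maturation, NELFB a subunit of the negative elongation factor, and ZBED6 a factor derived from a transposon.
CHCHD2 ETS word (chr7:56106650-56106675, plus strand): ctttaaaacCCGGAAGTtcctgtggt
ZNF264 ETS word (chr19:57191464-57191489, minus strand): gcgagcaacCCGGAAGTcccgccccc
SHISA2 NRF1 word (chr13:26052059-26052086, minus strand): ccgcgcagcGCGCATGCGCgccggggag
NELFB NRF1 word (chr9:137255177-137255204, plus strand): accgggtggGCGCATGCGCgctgggctg
ZBED6 YY1 word (chr1:203795525-203795550, minus strand): gcgatgcctAAGATGGCtgctccggg
The word began 190 bases upstream of the start at CHCHD2 and 27 bases upstream at ZNF264. The NRF1 word began 61 bases upstream at SHISA2 and 141 at NELFB, and the YY1 word began 89 bases upstream at ZBED6.

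The members with an ETS word were CHCHD2, CXorf38, FMR1, HDGFL1, IQANK1, JMJD8, KTI12, LRRC61, NAA10, PHF11, PWP2, RPGR, SETD6, SUPT20HL2, TDRD6, TYMP, ZFP3 and ZPBP, all listed because they were few. Those with a YY1 word were CUX2, EN1, GAD2, MAPK8IP2, NALF1, NKRF, PDE8B and RETREG1. Those with an NRF1 word were ASZ1, CALY, CEBPZOS, FAM228A, FMR1, MARVELD3, MCMDC2, NNAT, RWDD2B, SHISA2, SYCE2, UNKL and ZNF331, so FMR1, the fragile X gene, carried both an ETS and an NRF1 word.

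Within bands of CpG ratio and of G and C content, members had the ETS word less often than promoters with both in each band given here. Members had the word at 1.44, 0.908 and 1.55% in the CpG ratio bands 0.75 to 0.8, 0.8 to 0.9 and 0.9 to 1, against 10.1, 8.14 and 5.71% of promoters with both. Among promoters with 55 to 60% G and C, 0.806% of members and 15.1% of those with both had it, and at 70 to 75% the shares were 0.915 and 3.86%.

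The shares of the other words follow. The cAMP response element (TGACGTCA) was at 1.99% of members (1.41 to 2.81%), 4.24% of promoters with both (3.71 to 4.83%) and 2.62% of all coding promoters. An E2F word (TTTCGCGC) was rare everywhere, at 0.385% of members (0.177 to 0.838%), 1.22% of promoters with both (0.946 to 1.56%) and 0.691% of all coding promoters. The E-box read by MYC and MAX (CACGTG) was at 8.16% of members (6.9 to 9.62%), 11.3% of promoters with both (10.5 to 12.2%) and 8.32% of all coding promoters. The NFY word (CCAAT) was at 25.4% of members (23.3 to 27.6%), 31.2% of promoters with both and 34.3% of all coding promoters. The SP word (GGGGCGGGG), bound by SP and KLF factors, was at 36.5% of members (34.1 to 38.9%) and at 35.1% of promoters with both (33.8 to 36.5%), against 23.7% of all coding promoters. The core of the CTCF site was at 4.82% of members and 4.46% of promoters with both, and at 3.85% of all coding promoters. The core of the element of the neuronal repressor REST was at 3.28% of members (2.5 to 4.28%), 2.47% of promoters with both (2.07 to 2.94%) and 2.57% of all coding promoters. The TATA box (TATAAA), counted only on the sense strand beginning 40 to 20 bases upstream, went the other way, with 3.21% of members (2.44 to 4.21%), 1.84% of promoters with both (1.5 to 2.26%) and 3.95% of all coding promoters.

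**Figure D2:**
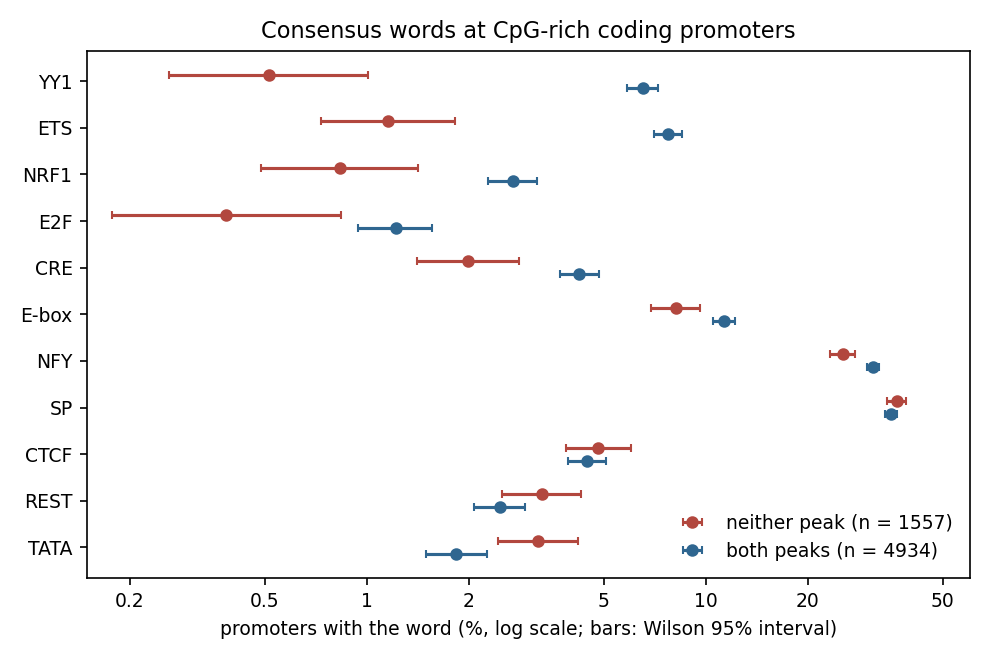
Share of CpG-rich promoters with each consensus word (%, log scale) among the 1557 members (red) and the 4934 promoters with both peaks (blue), with Wilson 95% intervals. The intervals are apart for the YY1, ETS, NRF1, E2F, CRE, E-box, NFY and TATA words and overlap for SP, CTCF and REST.

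By function, members were frequent among developmental transcription factors, ion channels, neurotransmitter receptors, clustered protocadherins and germline genes, and rare among genes for ribosomes and proteasomes. The gene lists were written from general knowledge or by symbol, and each count is over the CpG-rich genes of the list, beside 17.4% without and 55% with both peaks over all CpG-rich promoters. Of 188 CpG-rich genes on the developmental transcription factor lists, 119 (63.3%, 56.2 to 69.9%) had neither peak and 44 had both. Of 143 genes on the channel, receptor and synapse lists, 104 (72.7%, 64.9 to 79.4%) had neither and 19 had both. The genes on no list had neither peak in 1245 of 8113 cases (15.3%), so most members were outside the listed groups.

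**Figure D3:**
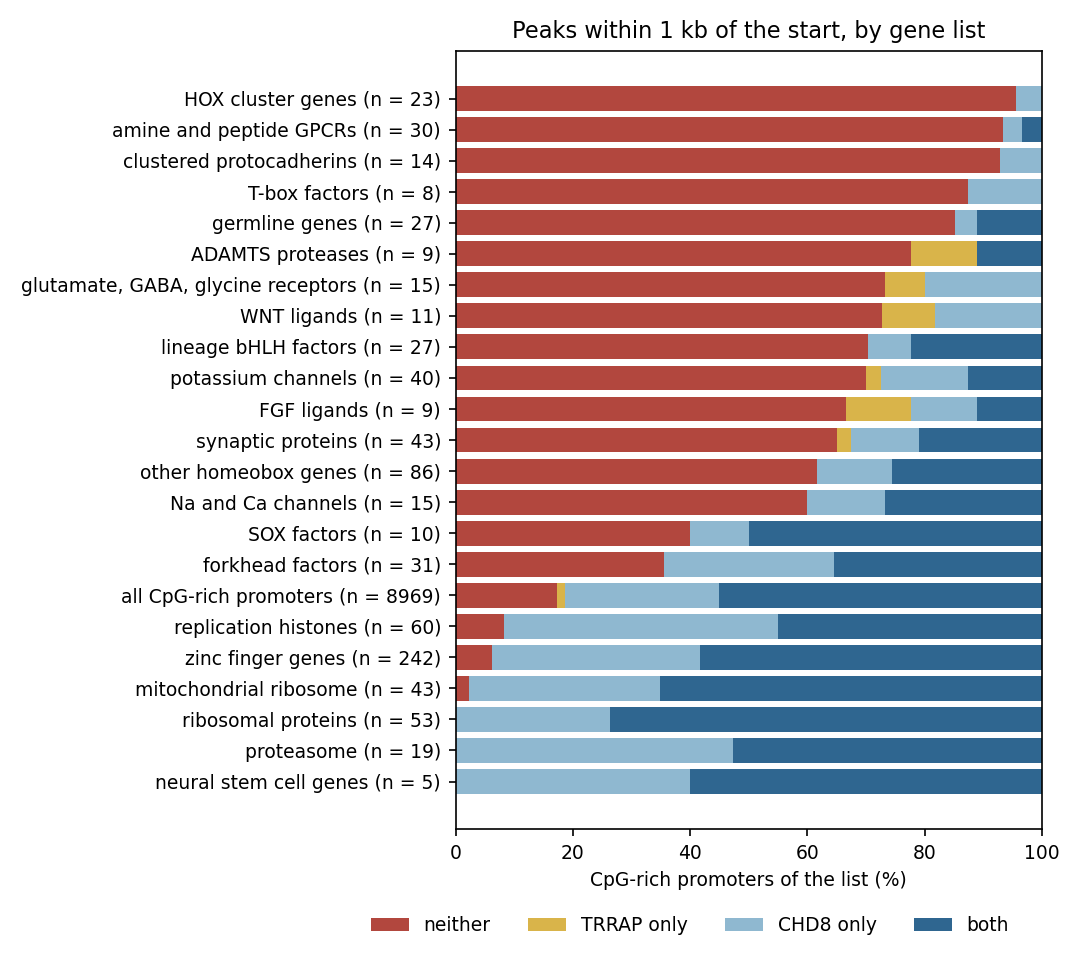
Share of the CpG-rich promoters of each gene list (%) with neither peak (red), TRRAP only (yellow), CHD8 only (light blue) and both (dark blue); n is the number of CpG-rich genes. Lists not plotted are given in the text. Among those plotted, the share with neither runs from 95.7% of HOX cluster genes to 0% of ribosomal protein, proteasome and neural stem cell genes, with 17.4% over all CpG-rich promoters.

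HOX genes, which give body segments their identity along the head to tail axis, were members almost throughout. Of 23 CpG-rich HOX genes 22 had neither peak, and the exception, HOXD8, had a CHD8 peak of fold 10.2 at chr2:176129496-176129795, 59 bp from its start. The HOXA cluster on chromosome 7 held 11 genes, 9 of them CpG-rich and all 9 members, and contained a single CHD8 peak (fold 7.54) 4408 bp from the HOXA7 start. The HOXB cluster (chr17:48531011 to chr17:48728750) had 5 members among 10 genes and no peak of either list over its 197740 bp. HOXC had 2 members among 9 genes with 1 CHD8 peak (fold 6.22) that lay 9182 bp from the HOXC8 start, and HOXD had 6 members among 7 CpG-rich genes. No TRRAP peak lay in any of the 4 clusters. The nearest TRRAP peak of HOXA9 was 300637 bp from its start, and that of HOXA5 was 278781 bp away, although HOXA9 had a CHD8 peak at 4365 bp. HOXD11 lay 22216 bp from a CHD8 peak and 272479 bp from a TRRAP peak.

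Among the other homeobox genes 53 of 86 CpG-rich promoters (61.6%, 51.1 to 71.2%) had neither peak, 11 had CHD8 only and 22 had both. IRX4 (ratio 1.02), a ventricular factor, had its nearest peaks at 48145 bp (CHD8) and 48703 bp (TRRAP). NKX1-1 had a TRRAP peak at 4126 bp and a CHD8 peak at 58695 bp. Members of 1 family fell in different classes: IRX4 had neither peak while IRX1, IRX2, IRX3 and IRX5 had both, and EN1 had neither while EN2 had both. ISL1, LHX1, LHX5, LMX1A, OTP, PAX7, PHOX2A and NKX2-2, which specify kinds of neurons, were members. LHX2, DLX1 and DLX2, forebrain regulators, had CHD8 only, and POU3F2, POU3F3, MEIS2 and POU3F1 had both. The classes did not follow these roles throughout. The forebrain regulators EMX1, OTX1, GSX1 and VAX1 were members, while LMX1B and NKX6-2, which specify neurons, had CHD8 only and both. These names were picked after their classes were seen.

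Lineage factors of the basic helix-loop-helix family had neither peak in 19 of 27 cases (70.4%, 51.5 to 84.1%). ASCL2, a factor of trophoblast and intestinal stem cells, lay 129593 bp from a CHD8 and 263202 bp from a TRRAP peak, and BHLHE23 lay 7789 and 7847 bp from peaks of both lists. The neurogenic factors NEUROG1 and NEUROG2 and the muscle factor MYOD1 were also members. The 6 with both were HEY2, HES4, HES6, ATOH8, HEY1 and HES5. The HES and HEY families were thus divided, since HES2 and HEYL were members. Among SOX factors, SOX7, SOX17, SOX18 and SOX3 had neither peak, and SOX8, SOX12, SOX1, SOX11 and SOX21 had both. SOX17, an endoderm factor, had its nearest peaks at 322571 bp (CHD8) and 322603 bp (TRRAP), and SOX3 at 65205 and 1301086 bp. T-box factors had neither peak in 7 of 8 cases, with TBX1 at 29927 bp from a CHD8 and 42528 bp from a TRRAP peak and TBX18 at 536570 and 829094 bp. GATA3, GATA5 and GATA6, factors of blood and endoderm, all had neither, and GATA6 lay 428066 bp from the nearest peak. Forkhead factors were divided more evenly, with 11 of 31 without peaks (35.5%, 21.1 to 53.1%), 9 with CHD8 only and 11 with both. FOXI3, FOXC2 and FOXF1 lay 174117, 11379 and 44498 bp from their nearest peak.

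The 119 members on these developmental lists had no ETS and no NRF1 word, where a count of 0 has an upper bound of 3.13%, and a YY1 word in 2 cases (1.68%, 0.462 to 5.92%, against 0.514% of all members). They had an E-box in 20.2% (13.9 to 28.3%) and an NFY word in 52.1% (43.2 to 60.9%), against 8.16 and 25.4% of all members. The 44 genes of the same lists with both peaks also had no ETS word, and had the E-box in 9.09% (3.59 to 21.2%) and the NFY word in 45.5%. Their CpG-dense stretches were long in both classes, with a median of 2097 bp without peaks and 2612 bp with both, against 1484 bp over all members. The genes of the members were short, with a median of 5693 bp against 42570 bp over all members.

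Of 40 CpG-rich potassium channel genes 28 (70%, 54.6 to 81.9%) had neither peak, 6 had CHD8 only, 1 had TRRAP only and 5 had both. KCNMA1, the large-conductance calcium-activated channel, lay 211381 bp (CHD8) and 211399 bp (TRRAP) from peaks, and KCNG1, a modulatory subunit, 54450 and 91312 bp. Sodium and calcium channels had neither peak in 9 of 15 cases. CACNA1A, the P/Q-type calcium channel, lay 225020 bp from a CHD8 and 288498 bp from a TRRAP peak, and CACNA1C, an L-type channel, 48201 and 48336 bp. Receptors for glutamate, GABA and glycine had neither peak in 11 of 15 cases and both in 0. GRIN1, the obligatory subunit of NMDA receptors, lay 8954 and 8810 bp from peaks, GABBR2, a GABA-B subunit, 87508 and 87349 bp, and GRIK3, a kainate receptor subunit, 439904 and 569928 bp.

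Receptors for amines and peptides that signal through G proteins were members in 28 of 30 cases (93.3%, 78.7 to 98.2%). The 2 exceptions were CHRM4 with CHD8 only and OPRL1 with both. ADRA2C, an adrenergic receptor whose promoter was 81.3% G and C, lay 55551 bp from a CHD8 and 55577 bp from a TRRAP peak. HTR7, a serotonin receptor, lay 13265 and 192017 bp away, and DRD4, a dopamine receptor, 21127 and 21174 bp. Genes for synaptic proteins and transmitter transport had neither peak in 28 of 43 cases (65.1%, 50.2 to 77.6%) and both in 9. CAMK2B, a kinase of the postsynaptic density, lay 67486 and 67582 bp from peaks, NPTX2, a secreted pentraxin, 261078 and 261162 bp, and DLGAP2, a postsynaptic scaffold, 6462 and 191667 bp. Among the 104 channel, receptor and synapse members the REST core was at 6.73% (3.3 to 13.2%), against 3.28% of all members and 2.68% of all CpG-rich promoters. It was at 0 of the 19 genes of these lists with both peaks (0 to 16.8%), so the intervals overlapped. Promoters of the 104 members were above 75% G and C in 29.8% of cases (21.9 to 39.2%), against 15.1% of all members. The share was 26.3% of the 19 with both peaks.

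Clustered protocadherins, cell-surface proteins of which each neuron uses a few, were members in 13 of 14 CpG-rich cases, and PCDHAC1 had CHD8 only. The numbered alpha promoters (chr5:140786140 to chr5:140882124) and the numbered gamma A and B promoters (chr5:141330514 to chr5:141430507) had no peak of either list among them. C-type promoters such as PCDHAC1 were not counted in these spans. PCDHA3 lay 89485 bp from a CHD8 and 161607 bp from a TRRAP peak, and PCDHGA11 lay 73270 and 92176 bp away. These members differed from the rest in composition: their median G and C content was 43.9% and the 9 PCDHA members had no CpG-dense stretch. They made up 9 of the 12 members without such a stretch, the others being HOXA2, BCL11A and KBTBD13. Cadherins and protocadherins outside the clusters had neither peak in 2 of 12 cases, CDH23 and CDH22, and both in 6.

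Secreted signals and matrix proteins varied by family. WNT ligands had neither peak in 8 of 11 cases and both in 0, with WNT4 at 89472 bp, WNT6 at 33028 bp and WNT2 at 302522 bp from the nearest peak. Over the 8 WNT members the median was 24600 bp. WNT11 had a TRRAP peak at 1143 bp, and 2 of the 8 had a peak at another annotated start. FGF ligands had neither in 6 of 9 cases, 2 of them with a peak at another annotated start. FGF9 had a CHD8 peak at 3061 bp and a TRRAP peak at 2746 bp inside the gene, FGF8 lay 7064 and 41919 bp away, and FGF14 116985 and 477572 bp. BMP and GDF ligands had neither in 5 of 13 cases, among them BMP2 at 761225 bp, BMP6 at 135791 bp and INHBB at 92605 bp from the nearest peak. ADAMTS proteases had neither in 7 of 9 cases, with ADAMTSL3, ADAMTS16 and ADAMTS18 at 206611, 220800 and 243566 bp. Collagens had neither in 4 of 11 cases, COL25A1, COL5A1, COL12A1 and COL8A2, and both in 4.

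Genes of germ cells and meiosis had neither peak in 23 of 27 CpG-rich cases (85.2%, 67.5 to 94.1%). HENMT1, which methylates piRNAs, lay 30800 bp from a CHD8 peak of fold 30.1 and 31320 bp from a TRRAP peak, and TAF7L, a testis form of a TFIID subunit, 99478 and 1225027 bp away. NRF1 words were at 3 of the 23 (13%, 4.54 to 32.1%), ASZ1, MCMDC2 and SYCE2, and ETS words at 2, TDRD6 and ZPBP. MAGE, GAGE and other cancer-testis families had 94 genes of which 0 were CpG-rich, so none could be a member.

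All 53 CpG-rich ribosomal protein genes and all 19 proteasome genes had a peak. Of 43 mitochondrial ribosome genes only MRPL23 was a member, and its promoter sequence occurs in 2 copies in the reference. Zinc finger genes named ZNF, ZFP, ZSCAN or ZKSCAN had neither peak in 15 of 242 cases (6.2%, 3.79 to 9.97%), among them ZNF667, ZSCAN1 and ZNF296. ZNF296 lay 2525 bp from a CHD8 peak of fold 32.7. Replication histones had neither in 5 of 60 cases (H4C6, H4C7, H4C16, H2BC6 and H2BC1), and H4C7 lay 2857 bp from a CHD8 peak of fold 17.3. Markers of neural stem cells, listed as a check of the labelled cell type, had 0 members among 5 CpG-rich genes: SOX1, HES5 and VIM had both peaks and MSI1 and SOX9 had CHD8 only. The other 5 markers were below the CpG limit, where NES, PAX6, SOX2 and HES1 had both peaks and FABP7 had CHD8 only. Binding does not measure expression, so this describes their promoters only.

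The genes of members differed in structure from those with both peaks. A coding neighbour starting head to head within 1 kb on the opposite strand was found at 30 members (1.93%, 1.35 to 2.74%) and at 16.4% of promoters with both (15.4 to 17.5%), against 13.1% of all CpG-rich promoters. Without these pairs, an alternative chosen after seeing the data, 19.6% of CpG-rich promoters had neither peak. Members had a median of 4 annotated starts per gene against 8, and a single annotated start in 17.3% (15.5 to 19.3%) against 6.61% (5.95 to 7.33%). The latter share was 9.16% of all CpG-rich and 15.6% of all coding promoters. Genes of a single exon made up 6.94% of members (5.78 to 8.31%), 2.37% of the promoters with both, 3.68% of all CpG-rich and 5.57% of all coding promoters. Genes longer than 100 kb made up 30.4% (28.2 to 32.8%) of members against 23.3% (22.1 to 24.5%) with both, 24% of all CpG-rich and 18.3% of all coding promoters, although median lengths were close (42570 and 40690 bp).

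Members tended to be neighbours. The next CpG-rich coding gene on at least 1 side was a member for 676 members (43.4%, 41 to 45.9%), against 27% (25.8 to 28.3%) of promoters with both and 30.9% of all CpG-rich promoters. Most runs were short, with 881 members standing alone, 209 runs of 2, 44 of 3 and 18 of 4. The longest, of 11 genes on chromosome 7, included HOXA2, HOXA4, HOXA5, HOXA6, HOXA7, HOXA9, HOXA10, HOXA13 and EVX1. The next had 9 PCDHA genes on chromosome 5, from PCDHA2 to PCDHA12. The third had 8 genes on the X chromosome, among them GPR101, SOX3, LDOC1, FMR1 and AFF2. Neighbours in a gene cluster share sequence and history, so they are not independent examples.

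The X chromosome held a larger share of members than any autosome. Of its 264 CpG-rich promoters 99 had neither peak (37.5%, 31.9 to 43.5%), 102 had CHD8 only (38.6%), 13 had TRRAP only (4.92%) and 50 had both (18.9%, 14.7 to 24.1%). On the autosomes 16.7% (16 to 17.5%) had neither and 56.1% had both, and single autosomes ran from 10.5% (chromosome 19) to 21.8% (chromosome 21, 14.8 to 30.8%) with neither. Where an X-linked promoter did hold both peaks, the CHD8 fold was lower (median 9.75 against 13.3 on autosomes), and the TRRAP folds were closer (8.65 against 9.12).

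**Figure D4:**
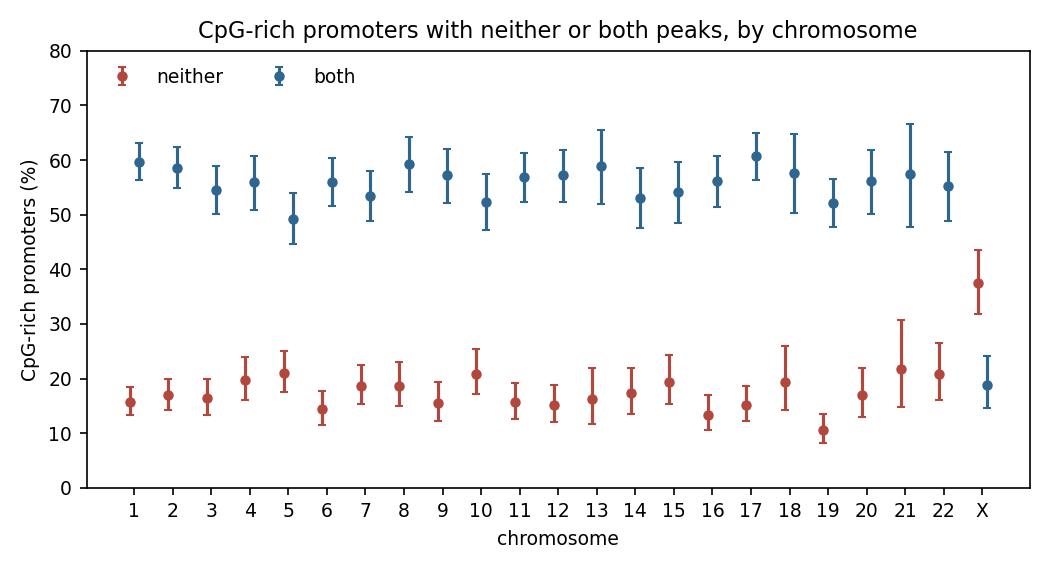
Share of CpG-rich coding promoters (%) with neither peak (red) and with both peaks (blue) on each chromosome, with Wilson 95% intervals. The X chromosome, with 37.5% neither and 18.9% both, stands apart from the autosomes, where the share with neither lies between 10.5 and 21.8%.

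X-linked members were much like autosomal ones in CpG ratio (median 0.84 in both) and in the length of the CpG-dense stretch (1444 and 1486 bp). They were more often genes of a single exon (19.2%, 12.6 to 28%, against 6.1%) and more often had a promoter present in several copies (9.09%, 4.86 to 16.4%, against 1.44%). At promoters with both peaks these shares were 8% (3.15 to 18.8%) and 6% (2.06 to 16.2%) on the X chromosome, against 2.31 and 1.17% on autosomes. At X-linked promoters with CHD8 only they were 3.92 and 0%. An ETS word was at 5 of the 99 (5.05%, 2.18 to 11.3%), namely CXorf38, FMR1, NAA10, RPGR and SUPT20HL2, and at 13 of the 1458 autosomal members (0.892%, 0.522 to 1.52%). At X-linked promoters with both peaks it was at 4 of 50 (8%, 3.15 to 18.8%) and at those with CHD8 only at 5 of 102 (4.9%, 2.11 to 11%), so on the X chromosome the intervals of members and occupied promoters overlapped. Their nearest peak lay farther away, with a median of 99480 bp against 60450 bp. Over single-copy promoters alone, 90 of 252 X-linked promoters (35.7%, 30.1 to 41.8%) had neither peak. EMD, which encodes emerin of the nuclear envelope, had the highest CpG ratio of the X-linked members (1.09) and lay 7919 bp from a CHD8 and 7980 bp from a TRRAP peak.

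Most members were far from any peak. The median distance from the start to the nearest peak edge of either list was 62250 bp (25th to 75th percentile 22100 to 153000 bp), close to the 54960 bp of promoters below the CpG limit that also lacked both. For CHD8 alone the median was 69200 bp and for TRRAP alone 109300 bp, from lists of different length. Only 39 members (2.5%) had a peak within 2 kb and 107 (6.87%) within 5 kb, while 574 (36.9%) had none within 100 kb. The closest were CPT1A, the carnitine transferase that admits fatty acids to mitochondria, with peaks at 1036 bp (CHD8) and 1021 bp (TRRAP), and SKI. EFNA5, an ephrin of axon guidance, had peaks at 1083 bp (CHD8, fold 10.2) and 1231 bp (TRRAP, fold 29.2), and GPRC5B had peaks at 1145 and 1100 bp. At the other end were the X-linked genes DCAF12L1 (2334591 bp), NAP1L3 (2238324 bp) and DCAF12L2 (1948066 bp), then LRP1B (1806357 bp), a lipoprotein receptor, and PTPRD (1754823 bp), a phosphatase of synapse formation.

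**Figure D5:**
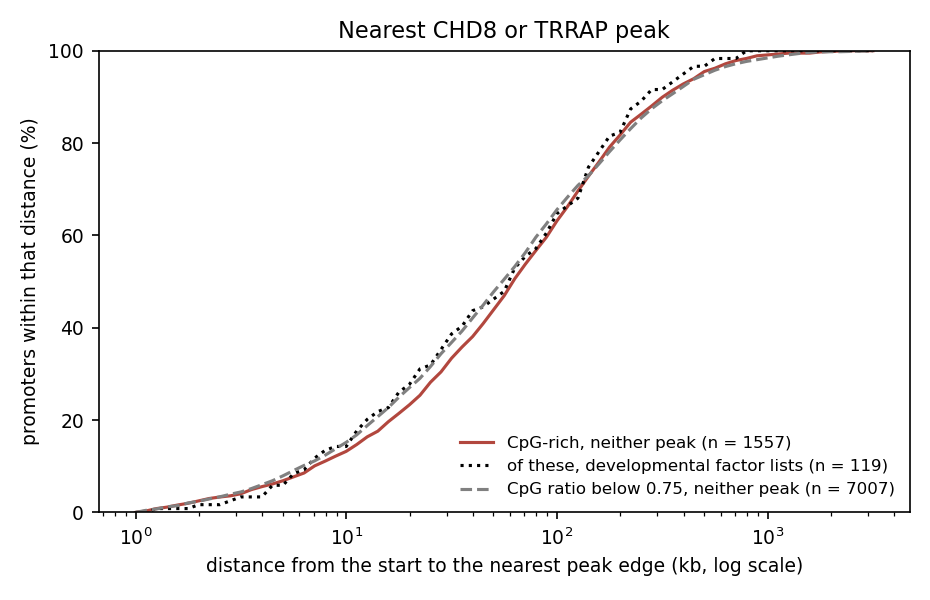
Cumulative share of promoters (%) against the distance from the start to the nearest peak edge of either list (kb, log scale) for all members (red), for the 119 members on the developmental lists (dotted) and for the 7007 promoters below the CpG limit that lack both peaks (dashed). The curves lie close together, with medians of 62250, 59220 and 54960 bp.

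Few promoters sat at the edges of the definition. The nearest peak edge lay at most 200 bp outside the window at 10 members and at most 200 bp inside it at 15 CpG-rich promoters, whereas 6648 CpG-rich promoters had a peak over the start itself. Just inside the window were SLC8A3 (991 bp), FLRT2 (978 bp), SULF2 (973 bp), FAM78A (967 bp) and RTKN (961 bp). A ratio from 0.75 to under 0.76 was found at 108 members, and 84 promoters lacking both had 0.74 to under 0.75. The members nearest above the limit were GPR83, GDA, C1QL3, NKD2 and APLN, and the genes nearest below it included KASH5, KCNK2, ACCS and GALR2.

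Some members had a peak elsewhere in the gene. A peak within 1 kb of another annotated start of the same gene was found for 139 members (8.93%, 7.61 to 10.4%). A peak of either list lay in the transcribed span of 311 (20%, 18.1 to 22%), with CHD8 in 18.3% and TRRAP in 11.5%. Promoters below the CpG limit that also lacked both had shares of 7.58% (6.98 to 8.22%) and 15% (14.1 to 15.8%). Over all coding promoters the shares were 60.5 and 62.4%, with peaks at the canonical start counted. The 139 genes had more annotated starts (median 11 against 4 in the other 1418 members), and each start adds a window. They were also longer (median 91370 against 38720 bp). Whether these differences account for the peaks was not tested. Every peak between the ends of a gene was counted, also one at the start of another gene inside or overlapping the span. Peaks in the span need not belong to the member, and starts of other genes there were not examined. The strongest CHD8 peak in a member's span was that of CACNA1D, an L-type calcium channel of neurons and endocrine cells. Its fold was 38.9 at chr3:53347000-53348123, with its edge 146488 bp upstream of the canonical start at chr3:53494611 but inside the annotated gene. A TRRAP peak of fold 10.6 overlapped it. TIPIN, a partner of the replication fork protein TIMELESS, had a TRRAP peak of fold 36.4 and a CHD8 peak of fold 12.8 about 30 kb upstream of its canonical start (nearest edges 29955 and 29942 bp). ADAP2 had a CHD8 peak of fold 34.1 with its edge 15349 bp from the start, and a TRRAP peak of fold 6.73. MEIOC, a meiotic gene, and GXYLT2, a xylosyltransferase of Notch, had CHD8 peaks of fold 29.2 and 28.8 with summits 33284 and 108893 bp downstream. For comparison, the strongest CHD8 peaks at promoters with both had folds of 93.7 (KMT5B), 88 (ZC3H6), 87.1 (shared by MGME1 and SNX5) and 76 (YWHAE).

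Reads from sequence that is repeated in the genome can be lost or misplaced. The 32-base words within 250 bp of the start occurred more than 1 time in the reference, at the median, for 30 members (1.93%, 1.35 to 2.74%) and for 1.22% of promoters with both (0.946 to 1.56%). The highest were ZNG1A with 5 copies, CNTNAP3 and RGPD1 with 4, and F8A1, F8A2, F8A3, H3-7 and TMEM191C with 3. The alpha globin genes HBA1 and HBA2, with 2 copies, were also among them. For the other 1527 members the promoter sequence was single-copy by this measure.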

How the data were processed

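Binding of CHD8 and TRRAP was measured by chromatin immunoprecipitation and sequencing, with 1 library each. The deposited lists give for each peak a position, a fold (a linear ratio over the caller's background), −log10 p and q values and a score, all made by the authors. Their names give a false discovery rate, 0.0001 for CHD8 and 0.001 for TRRAP. HISAT2, MACS2 2.1.1.20160309 and GRCh38 are named in the submitters' processing notes, with no role or setting, and read totals and the control are not given in the sources used here.

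Starts were the canonical transcripts of GENCODE release 44 on GRCh38. Features were computed with Python 3.11.15, numpy 2.4.6, pandas 2.3.3, pysam 0.24.0 and numba 0.67.0, with Wilson 95% intervals. The overlap of peaks with the window, the distances and the intervals were tested on simulated data. The CpG ratio, CpG-dense stretch, words and copy number were not tested in this way. Sequences were read from the GRCh38 reference. There was no statistical test, since each antibody had 1 library. Members and gene lists (27) were chosen with earlier results of these data known. The rule for genes given with values took single-copy promoters, except for copy number: the 3 members with the highest CpG ratio in each list (all where a list had fewer than 5), and the 5 extreme members for CpG ratio, nearest and farthest peak, strongest peak in the gene, CpG-dense stretch, CpG limit and copy number. Members of the 3 longest runs, the 5 strongest promoters with both and neural stem cell markers were added. Other genes, named mostly without values as members of a short list, were chosen after their values were seen. A few items that these rules name are not reported here.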

Additional observations from a re-analysis of the deposited data

How the results depend on the processing

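Of 117 values recomputed under 12 alternatives, 9 of them planned and 3 chosen after seeing the data, 94 stayed within counting error (the number of members within 1.5 times) and 23 did not. In addition, the ETS share at promoters with both and the X-linked share were added as results after seeing the data. Lowering the CpG limit to 0.6 gave 2768 members, or 20.9% of the promoters above it, and 43.8% on the X chromosome. Raising it to 0.9 gave 299 members, 12.4%, and an ETS word at 5.64% of promoters with both. On the X chromosome this limit gave 20.8% (12 to 33.5%, 11 of 53), an interval that includes the 12.4% over all chromosomes. Counting only peaks above the median rank of each list gave 2901 members (32.3%), 79.1% of homeobox genes, 67.4% of X-linked promoters and an ETS word at 2.76% of members. Requiring no peak at any annotated start gave 15.8%. Without head-to-head coding promoters the share was 19.6%, and the ETS share of promoters with both was 6.4%. Without promoters above 75% G and C, an SP word was at 32.9% of members and their median CpG-dense stretch was 1429 bp. Windows of 500 or 2500 bp, summits in place of overlap, the stricter TRRAP threshold and single-copy promoters left the values above within counting error.

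Each antibody had 1 library, so leaving out a replicate was not done. No paired analysis was possible because the result comes from no test. Read depth is unknown, and a weak peak cannot be told apart from none. Exact words miss sites with a mismatch. The repeat share of promoters was not computed, because the reference used carried no repeat marking.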
